A study of Mus musculus with 6 samples.

Results

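Acute phase proteins are plasma proteins whose output by the liver changes with inflammation. The 10 genes described here encode the orosomucoids Orm1, Orm2 and Orm3, the serum amyloid A proteins Saa1, Saa2 and Saa3, haptoglobin (Hp), hemopexin (Hpx), lipocalin 2 (Lcn2) and fibrinogen-like 1 (Fgl1). They are 10 of the 52323 genes in the count table, found by symbol, and all 10 are among the 19135 genes that passed the filter on low counts. With 5C left aside, at least 2 of the 4 other libraries of each gene reached the filter's minimum of 0.148 CPM (counts per 1000000 of the library total). That minimum lies under the counting floor of 0.173 to 0.182 CPM used below. Orm3 reached it with a DMSO library at 0.149 CPM and Saa2 with a 3C library at 0.176 CPM, both at or under the floor. For these genes, passing the filter thus says little about their levels outside 5C. They were chosen from earlier results of these data, because Orm1 and Fgl1 stood out between the 5-compound and the 3-compound cocktail, so that comparison is given below as a description without a test.

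RNA was sequenced from damaged hepatocytes (dHeps) isolated from the livers of CCl4-injured mice. In all groups the genotype was AAV-TBG-Cre:Rosa-LSL-tdTomato, in which a viral Cre under the liver-specific TBG promoter turns on tdTomato in hepatocytes. The cells were kept for 16 days in serum-free Hepatocyte Maintenance Medium (Lonza) with DMSO as the solvent control, with 3C, or with 5C. The 3C cocktail held 50 µM CID755673, a protein kinase D inhibitor, 2 µM GSK429286A, a ROCK inhibitor, and 5 µM ETC-1002, described in the study as an AMPK activator. The 5C cocktail added 5 µM salidroside, a phenylpropanoid glycoside, and 2 µM forskolin, which activates adenylate cyclase. Each group had 2 libraries. No uninjured or freshly isolated hepatocytes were compared here. The paper states that its n counts biological replicates. Neither it nor the labels state that the libraries of a group came from separate animals. P-values thus measure only the spread between these libraries, which may be technical.

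In the hepatic acute phase response, cytokines of the interleukin-6 family signal through gp130 and STAT3, and interleukin-1 and tumor necrosis factor signal through NF-kB. C/EBP factors, liver-enriched HNF factors and glucocorticoids act on many of the same promoters. Positive acute phase proteins rise in this response while negative ones, such as albumin and transthyretin, fall.

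The 10 genes followed 3 patterns in dHeps. Orm1, Orm2, Orm3, Saa1, Saa2 and Fgl1 were low in DMSO and in 3C and higher in 5C. There Orm1 had a mean of 127 CPM and Fgl1 of 53.5, while Orm2, Orm3, Saa1 and Saa2 were still low, at 2.68 to 7.14 CPM. Hp, Hpx and Lcn2 were already abundant in DMSO, rose with 3C and stood higher again with 5C, by a ratio of 1.72 for Lcn2 and less for Hp and Hpx. Saa3 was the most abundant of the 10 in DMSO per gene length and was lower in both cocktails. A gene was called in a comparison if it passed 0.05 as its p in edgeR's quasi-likelihood test, adjusted by Benjamini-Hochberg over all genes, and changed by more than 1 on the log2 scale. In 5C against DMSO, 9 of the 10 genes were called higher and 0 lower, beside 7.3% of all tested genes called higher and 4.42% called lower. In 3C against DMSO, 5 of the 10 were called higher and 1 lower, beside 5.83% called higher and 3.62% called lower over all genes. The median log2 fold change of the 10 was 4.37 in 5C and 1.38 in 3C, while that of all tested genes was 0.0041 and 0.0088. These comparisons share the DMSO libraries, and each shares 1 cocktail's libraries with the comparison behind the choice of genes, so the counts are not independent of that choice.

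**Figure D1:**
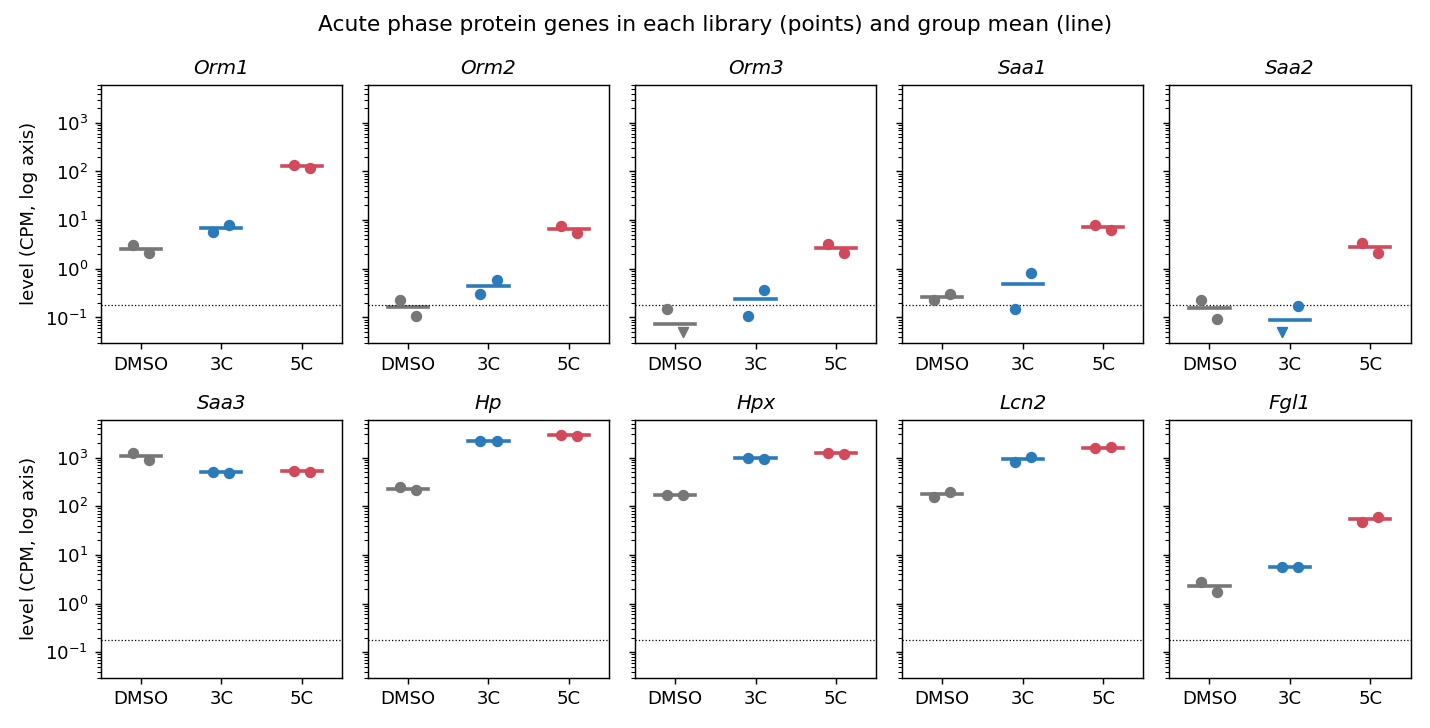
Level of each of the 10 genes in CPM (counts scaled to the library total, log axis) in DMSO (grey), 3C (blue) and 5C (red). Points are libraries, lines are group means, the dotted line is the floor of 12 count units, and triangles at the bottom mark libraries with a count of 0; the 5C libraries of Orm1 lie at 134 and 120 CPM, above all 4 others.

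Library totals were 65916573 to 69245895 estimated counts. A fragment was assumed to stand for 4 count units, so the floor of 3 fragments was 0.173 to 0.182 CPM, and it covers counting error only. All 12 hepatocyte markers were above that floor in some library. Their summed level was 2401 to 2731 CPM in DMSO, 10859 to 11331 with 3C and 9993 to 14618 in 5C. The 12 macrophage markers summed to 11919 to 12846 CPM in DMSO, more than the hepatocyte markers in those libraries, and to 3956 to 3991 in 3C and 2561 to 2642 in 5C. In such bulk samples, fewer cells of a type and less RNA per cell cannot be told apart.

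Orm1, Orm2 and Orm3 encode alpha-1-acid glycoproteins, plasma proteins that bind basic drugs and lipids. They lie side by side on the plus strand of chromosome 4 (GRCm39), Orm1 at chr4:63261052-63272189, Orm3 at chr4:63274208-63277748 and Orm2 at chr4:63280686-63284115, with gaps of 2.0 kb and 2.9 kb. Orm1 stood at 3.05 and 2.11 CPM in the DMSO libraries, at 5.57 and 7.92 with 3C, and at 134 and 120 in 5C. The groups did not overlap, and both 5C libraries lay far above the rest. Group means were 2.58 ± 0.667 CPM for DMSO, 6.74 ± 1.66 for 3C and 127 ± 9.87 for 5C (SD, n = 2). Orm1 was called higher in 5C against DMSO, with a log2 fold change of 5.64 (SE 0.23, adjusted p = 3.21e-06), which is a 49.4-fold ratio of mean CPM. With 3C it was also called higher, at 1.35 on the log2 scale (SE 0.21, adjusted p = 0.00335), or 2.61-fold.

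Orm2 was at 0.223 and 0.106 CPM in DMSO, at 0.302 and 0.601 with 3C, and 7.57 and 5.31 with 5C. Orm3 was at 0.149 and 0 CPM in DMSO, at 0.106 and 0.366 with 3C, and at 3.26 and 2.09 in 5C. For both genes the 4 DMSO and 3C libraries were near or under the floor and the 5C libraries were clear of it. Orm2 was called higher in 5C against DMSO with a log2 fold change of 5.29 (SE 0.49, adjusted p = 5.36e-05). Both DMSO libraries of Orm3 were at or under the floor, so its mean in 5C was at least 14.7-fold higher than the group floor in DMSO (adjusted p = 0.00983). That call was lost without 5C replicate 1 (adjusted p = 0.0523).

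In 3C against DMSO, Orm2 had a log2 fold change of 1.41 (SE 0.49, adjusted p = 0.0692) and was not called. It was called without 3C replicate 1, at 1.82 (adjusted p = 0.0427), and by DESeq2, at 1.42 (adjusted p = 0.0437). Orm3 overlapped between 3C and DMSO (adjusted p = 0.362), and was called at a log2 fold change of 6.99 (adjusted p = 0.0284) once the DMSO replicate with counts was left out, against a lone library at 0.

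Orm1 made up 89.1% to 95.2% of the counts of the 3 genes in every library, so its share of the family was similar in all groups while the family's summed level moved. Of the 50-base words of the longest Orm1 transcript, 18.9% also occurred in other genes, mostly Orm2, and for Orm2 the share was 23.7%. How many reads the deposited counting moved between them is not known, and the exons of Orm1 also overlap Gm52743 on the opposite strand. Summed to 1 row, the 3 genes were called higher in 5C, with a log2 fold change of 5.61 (SE 0.27, adjusted p = 2.4e-05), and in 3C, at 1.37 (SE 0.26, adjusted p = 0.011).

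The serum amyloid A genes sit in a cluster on chromosome 7, in which neighbours moved differently. Saa1 and Saa2 encode apolipoproteins that the liver releases onto high-density lipoprotein in the acute phase, Saa4 a constitutive relative, and Saa3 a form made largely by macrophages, adipocytes and epithelia. Saa3 lies at chr7:46361422-46365576 on the minus strand, followed by Saa4 at chr7:46377406-46382035 and Saa1 at chr7:46389916-46392547 on the same strand, and by Saa2 at chr7:46401214-46403737 on the plus strand. The gaps between them are 11.8, 7.9 and 8.7 kb.

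Saa1 was at 0.223 and 0.303 CPM in DMSO, at 0.151 and 0.806 with 3C, and at 7.92 and 6.35 in 5C. Saa2 was at 0.223 and 0.0910 CPM in DMSO, at 0 and 0.176 with 3C, and at 3.42 and 2.14 in 5C. For both, 3C and DMSO overlapped and only the 5C libraries exceeded 1 CPM. In 5C against DMSO, Saa1 had a log2 fold change of 4.77 (SE 0.69, adjusted p = 0.00163) and a 27.1-fold ratio of means. Saa2 had a log2 fold change of 4.14 (SE 0.98, adjusted p = 0.0162), and its call was lost without DMSO replicate 2 (adjusted p = 0.0898), without 5C replicate 1 (adjusted p = 0.091) or without 5C replicate 2 (adjusted p = 0.0516). In 3C against DMSO neither was called, with log2 fold changes of 0.83 for Saa1 (SE 0.68, adjusted p = 0.462) and -0.84 for Saa2 (SE 1.08, adjusted p = 0.659).

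The 3C values of both genes turned on single libraries. Saa1 gave a log2 fold change in 3C of 1.58 (adjusted p = 0.0283) without 3C replicate 1 and of -0.83 without 3C replicate 2. Saa2 gave 0.13 without 3C replicate 1 and -6.42 (adjusted p = 0.0319) without 3C replicate 2, which left a lone library at 0. The longest transcripts of Saa1 and Saa2 shared 32.1% and 31.8% of their 50-base words, almost all with each other, so the split between them is uncertain. Summed to 1 row they were called higher in 5C, at a log2 fold change of 4.57 (SE 0.75, adjusted p = 0.00511), and not in 3C, at 0.40 (SE 0.74, adjusted p = 0.774).

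Saa3 was at 1221 and 899.9 CPM in DMSO, at 501 and 489 with 3C, and at 541 and 513 in 5C. Both DMSO libraries were above all 4 others, and the cocktails overlapped neither with DMSO nor with each other. Group means were 1061 ± 227 CPM for DMSO, 495 ± 8.49 for 3C and 527 ± 20.3 for 5C (SD, n = 2). Saa3 was called lower in 3C against DMSO, with a log2 fold change of -1.13 (SE 0.12, adjusted p = 0.000209). In 5C against DMSO its log2 fold change was -0.99 (SE 0.12, adjusted p = 0.000355), just short of the limit on the fold, so it was not called. Without DMSO replicate 1 the value in 3C was -0.91, no longer past the limit, and without DMSO replicate 2 the value in 5C was -1.18, past it. It was past it in 5C also without 5C replicate 1, at -1.01. Saa3 nevertheless held 98.0% to 99.97% of the counts of Saa1, Saa2 and Saa3 in every library.

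The macrophage markers moved in the same direction as Saa3 and by more. In both cocktails 11 of 12 were called lower, 0 were higher, and 1, Clec4f, was not called. Per 1000 macrophage marker counts, Saa3 was at 86.3 ± 22.9 counts in DMSO, 125 ± 1.35 in 3C and 202 ± 3.35 in 5C (SD, n = 2), so on that scale it was highest in 5C. The mesothelial markers summed to 806 to 968 CPM in DMSO, 1081 to 1203 with 3C and 1853 to 1965 in 5C. Per 1000 mesothelial marker counts, Saa3 was at 1189 ± 102 counts in DMSO, 434 ± 25.3 in 3C and 276 ± 0.747 in 5C. On that scale it was highest in DMSO. The part of either cell type in the level of Saa3 was not tested.

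**Figure D2:**
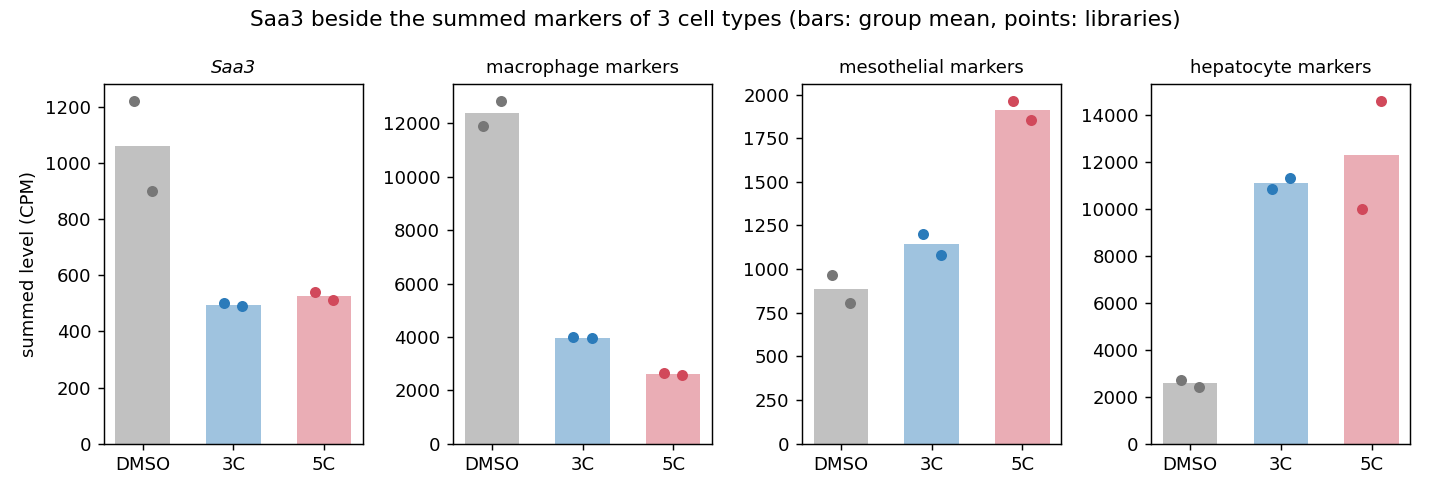
Summed level in CPM (linear axes that start at 0) of Saa3 and of the markers of macrophages (12 genes), mesothelial cells (7 genes) and hepatocytes (12 genes). Bars are group means and points are the 2 libraries of each group; Saa3 and the macrophage markers were highest in both DMSO libraries, and the hepatocyte markers lowest.

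Saa4 is not among the 10 genes but shares the cluster. It was at 0.462 and 0 CPM in DMSO, at 1.99 and 2.13 with 3C, and at 12.4 and 10.8 in 5C. It was called higher in 5C against DMSO, at a log2 fold change of 5.66 (SE 1.09, adjusted p = 0.0191), and not in 3C, at 3.11 (SE 1.05, adjusted p = 0.108). Within the cluster, Saa1, Saa2 and Saa4 were thus called higher in 5C, while Saa3 was lower in every 5C library than in every DMSO library.

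The promoters of 5 of these genes are printed to show the sequence beside each start site for 4 genes that were called higher in 5C than in DMSO and for Saa3, which was not called there. Each is 300 bases, from 250 before to 50 after the RefSeq start, 5′ to 3′ on the gene's strand, from a RefSeq table of GRCm38.p6, and each matched GRCm39 exactly once. The gene positions given above are those of GENCODE, and its starts differ. The RefSeq start lay 187 bases downstream of the GENCODE start for Orm3, 143 for Saa1, 43 for Saa2, 476 for Saa3 and 0 for Orm2. The Saa3 window thus lies within the gene as positioned above. Capitals mark the C/EBP word TTNNGNAA and, in Orm2, also AGAACA, a core word of glucocorticoid receptor sites. The windows lie at chr4:63280436-63280735 (plus strand) for Orm2, chr4:63274145-63274444 (plus) for Orm3, chr7:46392355-46392654 (minus) for Saa1, chr7:46401007-46401306 (plus) for Saa2 and chr7:46365051-46365350 (minus) for Saa3.
Orm2: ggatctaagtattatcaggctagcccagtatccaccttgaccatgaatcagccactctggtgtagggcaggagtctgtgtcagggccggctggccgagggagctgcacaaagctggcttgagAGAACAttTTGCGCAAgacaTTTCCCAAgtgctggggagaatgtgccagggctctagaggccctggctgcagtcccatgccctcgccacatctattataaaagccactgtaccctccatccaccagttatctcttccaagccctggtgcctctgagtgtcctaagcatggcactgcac
Orm3: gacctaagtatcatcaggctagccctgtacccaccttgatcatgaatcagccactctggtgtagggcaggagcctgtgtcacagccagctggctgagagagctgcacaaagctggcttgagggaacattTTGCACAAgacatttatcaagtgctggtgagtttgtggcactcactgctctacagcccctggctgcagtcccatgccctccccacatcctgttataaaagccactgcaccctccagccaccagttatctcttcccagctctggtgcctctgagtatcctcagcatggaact
Saa1: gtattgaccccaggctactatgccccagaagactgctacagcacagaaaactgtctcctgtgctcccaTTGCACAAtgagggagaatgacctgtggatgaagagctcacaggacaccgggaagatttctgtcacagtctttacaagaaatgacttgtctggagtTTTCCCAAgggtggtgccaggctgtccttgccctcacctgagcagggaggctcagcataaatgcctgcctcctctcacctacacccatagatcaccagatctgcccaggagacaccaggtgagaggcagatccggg
Saa2: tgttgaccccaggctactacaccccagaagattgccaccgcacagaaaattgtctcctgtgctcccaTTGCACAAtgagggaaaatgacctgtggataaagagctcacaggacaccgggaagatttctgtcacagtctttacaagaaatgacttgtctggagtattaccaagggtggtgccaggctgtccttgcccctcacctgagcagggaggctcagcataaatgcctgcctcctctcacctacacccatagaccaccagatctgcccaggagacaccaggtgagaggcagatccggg
Saa3: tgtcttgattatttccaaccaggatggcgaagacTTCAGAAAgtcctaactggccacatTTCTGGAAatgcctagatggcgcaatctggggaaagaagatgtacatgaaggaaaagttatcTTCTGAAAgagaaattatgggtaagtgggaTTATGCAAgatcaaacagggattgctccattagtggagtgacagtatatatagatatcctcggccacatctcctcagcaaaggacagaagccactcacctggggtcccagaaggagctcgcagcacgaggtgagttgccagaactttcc

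Promoters were in the table for 7 of the 10 genes, which were these 5, Hpx and Lcn2. Those of Orm1, Hp and Fgl1 were not. For Hpx and Lcn2 the RefSeq start lay 21 and 513 bases downstream of the GENCODE start. The C/EBP word occurred on at least 1 strand in 7 of 7, beside 40.7% of all 32851 promoters of that length. In Orm3 and Orm2 the word nearest to the start began at -121 and -108 bases, and the windows of the 2 genes were 86.6% identical. Saa1 and Saa2 were 95.3% identical and shared the word TTGCACAA at -182 and -183. A second word, TTTCCCAA at -86 in Saa1, was absent from Saa2. Saa3 had 4 words, none of them among those of Saa1 and Saa2, and was 54.2% identical to Saa1 and 54.0% to Saa2.

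Other motifs were searched on both strands. The STAT3 motif TTCNNNGAA was in 0 of 7 windows and in 8.3% of all promoters, the NF-kB motif GGGANTTCC in 0 and 1.7%, and the HNF1 word GTTAAT in 0 and 7.1%. The cAMP response element TGACGTCA was in 0 of 7 and 1.8%, and its shorter form TGACG, which lies within it, in 0 of 7 and 20.8%. AGAACA was in 1 of 7 windows, that of Orm2, and in 19.0% of all promoters. No match says only that these letters are not in these windows, and none of the matches was tested for binding. Windows set at the GENCODE starts were not searched.

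Fgl1, at chr8:41644457-41668205 on the minus strand, encodes a hepatocyte-secreted protein that is also a ligand of the lymphocyte receptor LAG-3. It was at 2.77 and 1.73 CPM in DMSO, at 5.75 and 5.51 with 3C, and at 46.9 and 60.2 in 5C. The order DMSO, 3C, 5C held without overlap. Fgl1 was called higher in 5C against DMSO, with a log2 fold change of 4.59 (SE 0.23, adjusted p = 2.56e-06) and a 23.8-fold ratio of means. It was also called higher in 3C, at 1.29 (SE 0.22, adjusted p = 0.00282), while limma on log2(FPKM + 1) gave 0.97, under the limit on the fold. Orm1 and Fgl1 had nearly the same log2 fold change in 3C.

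Hp, Hpx and Lcn2 encode scavengers. Haptoglobin binds free hemoglobin, hemopexin binds heme, and lipocalin 2 binds the siderophores with which bacteria take up iron. They are not neighbours, since Hp lies at chr8:110301759-110305804, Hpx at chr7:105240817-105249344 and Lcn2 at chr2:32274645-32278264, all on the minus strand. None of the 50-base words of their longest transcripts occurred in another gene.

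Hp was at 243 and 214 CPM in DMSO, at 2138 and 2172 with 3C, and at 2862 and 2825 in 5C. Hpx was at 169 and 170.2 CPM in DMSO, at 988 and 926 with 3C, and at 1266 and 1159 in 5C. Lcn2 was at 154 and 195 CPM in DMSO, at 817 and 1035 with 3C, and at 1562 and 1621 in 5C. In all 3 genes the groups were ordered DMSO, 3C, 5C without overlap, and the step from DMSO to 3C was the larger one.

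In 3C against DMSO the log2 fold change was 3.21 for Hp (SE 0.08, adjusted p = 6.15e-07), 2.47 for Hpx (SE 0.08, adjusted p = 1.2e-06) and 2.37 for Lcn2 (SE 0.15, adjusted p = 3.63e-05). In 5C against DMSO it was 3.66 for Hp (SE 0.08, adjusted p = 1.74e-07), 2.86 for Hpx (SE 0.08, adjusted p = 1.74e-07) and 3.20 for Lcn2 (SE 0.16, adjusted p = 6.94e-06). All 3 genes were called higher in both cocktails. As ratios of mean CPM these were 9.43-fold, 5.65-fold and 5.30-fold in 3C, and 12.4-fold, 7.16-fold and 9.11-fold in 5C. Lcn2 is also a granule protein of neutrophils, and 7 of 11 neutrophil markers, among them S100a9, Ly6g and Mpo, were at or under the floor in all 6 libraries, with Ngp at 0 throughout. Csf3r, another of these markers, had a mean of 6.95 CPM in DMSO and was called lower in both cocktails. Ltf was called lower in 5C, from a mean of 0.225 CPM in DMSO, near the floor. The neutrophil marker sum was 7.18 to 9.44 CPM in DMSO and 1.60 to 2.89 in the cocktails. Lcn2 was at 154 CPM or more in every library. The part of neutrophils in the level of Lcn2 was not tested.

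**Figure D3:**
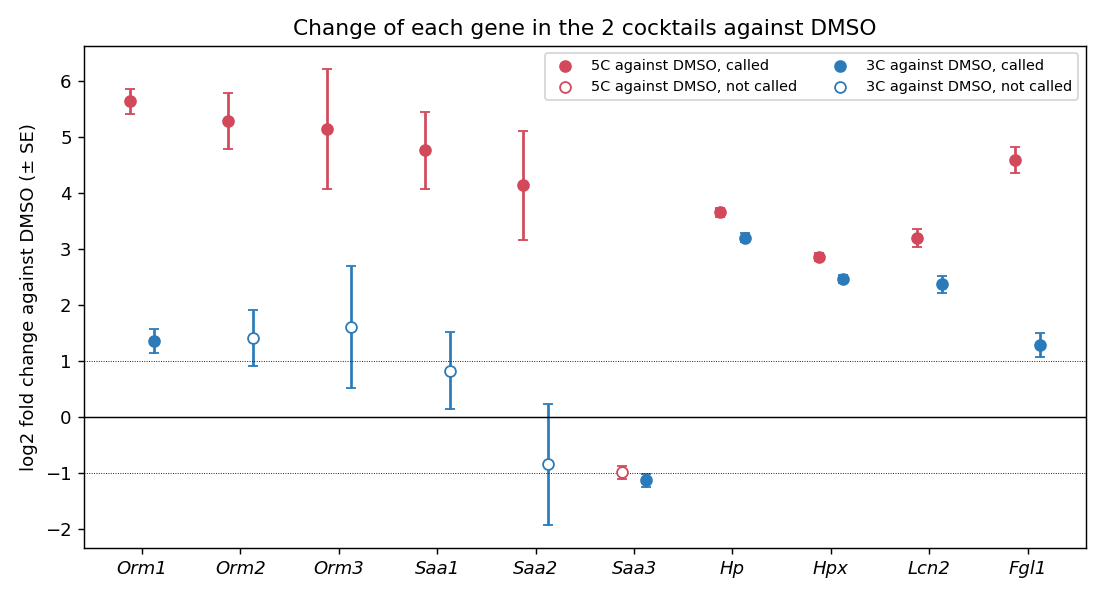
Log2 fold change with its SE for each of the 10 genes in 5C against DMSO (red) and 3C against DMSO (blue), from the edgeR fit over all 6 libraries. Filled points were called and open points were not, and dotted lines mark the limit on the fold; Hp, Hpx and Lcn2 lie close together in both cocktails, while Orm1 is at 5.64 in 5C and 1.35 in 3C.

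Per gene length, the order of the 10 genes changed. In DMSO, Saa3 had a mean of 1740 FPKM and ranked 12 among all genes, ahead of Lcn2 at 162, Hp at 155 and Hpx at 103 FPKM. In 5C, Hp came first at 1912 FPKM (rank 8), then Lcn2 at 1483 (rank 11), Saa3 at 854 (rank 40), Hpx at 730.0 (rank 51), Orm1 at 148 (rank 428) and Fgl1 at 42.8 (rank 1765). The SDs were 54.2 FPKM for Hp, 27.6 for Lcn2, 50.4 for Saa3, 60.5 for Hpx, 14.6 for Orm1 and 6.64 for Fgl1 (n = 2), and no neighbours in that order overlapped over the libraries. Orm2 at 7.51, Saa2 at 3.79 and Orm3 at 3.12 FPKM followed, and the last 2 did overlap. The gene length implied by the deposited FPKM of Saa1 varied 4.40-fold between libraries, so its FPKM are not compared.

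The 10 genes together held 0.148% to 0.179% of all counts in DMSO, 0.446% to 0.464% in 3C and 0.631% to 0.643% in 5C. Saa3 was 60.7% to 68.1% of that sum in DMSO and 8.1% to 11.2% in the cocktails. Hp was 13.6% to 14.4% in DMSO and 44.5% to 48.0% in the cocktails.

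The choice of genes rested on 5C against 3C, and no test is given for it. In that comparison 5 of the 10 genes passed the same limits upward and 0 downward, beside 2.16% and 0.852% of all genes, and nothing is read from that count. The ratio of mean CPM was 18.9 for Orm1, 14.3 for Orm2, 11.3 for Orm3, 14.9 for Saa1 and 9.51 for Fgl1, and at least 15.3 for Saa2, whose 3C libraries were at or under the floor. It was 1.72 for Lcn2, 1.32 for Hp, 1.27 for Hpx and 1.06 for Saa3. By log2 fold change Orm1 ranked 1 and Fgl1 ranked 8 among the 230 genes that passed upward with a mean of at least 10 CPM in a group. The 6 genes with the highest ratios were thus the 6 with the lowest levels in 3C, and the 4 abundant genes had the smallest ratios.

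The summed hepatocyte markers were higher in both cocktails, and set against that sum the ratio of each gene to its DMSO level was lower than per library total. Of the 12 markers, 10 were called higher in 5C against DMSO and 11 in 3C, with 0 called lower. Arg1 went the other way, at a log2 fold change of -0.85 in 5C (adjusted p = 0.000269) and -0.33 in 3C (adjusted p = 0.0422), within the limit on the fold. Hp was at 89.0 ± 0.139 counts per 1000 hepatocyte marker counts in DMSO, 194 ± 3.72 in 3C and 240 ± 65.8 in 5C (SD, n = 2). Hpx was at 66.3 ± 6.44, 86.4 ± 6.52 and 103 ± 33.5, and Lcn2 at 68.9 ± 17.5, 83.3 ± 11.4 and 134 ± 32.1. Hp and Hpx stayed above DMSO in all 4 cocktail libraries, with 3C and 5C overlapping for Hpx and for Hp. Lcn2 overlapped between DMSO and 3C. On this scale Orm1 was lower in 3C, at 0.513 and 0.699, than in DMSO, at 1.12 and 0.878, and stood at 13.4 and 8.24 in 5C. Fgl1 was likewise lower in 3C, at 0.530 and 0.486, than in DMSO, at 1.01 and 0.720, and stood at 4.69 and 4.12 in 5C. Saa3 was at 411 ± 51.3 in DMSO, 44.6 ± 2.11 in 3C and 44.6 ± 13.5 in 5C, without overlap between DMSO and the cocktails.

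Alb alone was 49.2% to 71.1% of the hepatocyte marker sum. Without Alb in the sum, Orm1 was at 2.22 and 1.73 counts per 1000 marker counts in DMSO, at 1.61 and 2.22 with 3C and at 41.6 and 28.5 in 5C, so that 3C and DMSO overlapped. Fgl1 was then at 2.02 and 1.42 in DMSO, 1.66 and 1.55 in 3C, and 14.5 and 14.3 in 5C. Hp was at 177 and 175 in DMSO and at 619 and 610 in 3C, and remained higher there. The higher level of Orm1 and Fgl1 in 3C than in DMSO was thus seen per library total and not per hepatocyte marker count, while in 5C both genes were higher on each of these scales. These ratios were not tested, and they were computed after the data had been seen.

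The rest of the acute phase program was read from lists. Of 22 other positive acute phase genes, 17 were called higher and 0 lower in 5C against DMSO, with a median log2 fold change of 2.21, and 15 and 0 in 3C, with a median of 1.59. Hamp, the iron hormone hepcidin, had a log2 fold change of 6.04 in 5C (adjusted p = 4.79e-05) and 3.73 in 3C (adjusted p = 0.00057). It was at 0.581 and 0.167 CPM in DMSO, the second under the floor, so the size of these folds is uncertain. In 3C it was at 4.83 and 5.35 CPM, and in 5C at 27.4 and 21.6. Itih3, a hyaluronan-binding inhibitor heavy chain, had 5.44 (adjusted p = 0.000591) and 2.71 (adjusted p = 0.00533). The fibrinogen chain Fgg had 3.87 in 5C (adjusted p = 1.27e-05) and 2.04 in 3C (adjusted p = 0.000231). Crp, Cp and Lbp resembled Hp in having called rises in both cocktails, with 2.18, 1.92 and 1.26 in 5C and 2.27, 1.98 and 1.24 in 3C. Lrg1, a leucine-rich acute phase glycoprotein, was called higher in 5C, at 1.29 (adjusted p = 0.000353), and not in 3C, at -0.30 (adjusted p = 0.175). The metallothioneins Mt1 and Mt2, Cd14, Il1rn and Slc39a14 were not called in either.

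Most of the negative acute phase genes were higher too. Of 12, 9 were called higher and 0 lower in each cocktail against DMSO, with medians of 2.27 in 5C and 2.00 in 3C. Apoa2, an apolipoprotein of high-density lipoprotein, had a log2 fold change of 5.83 in 5C (adjusted p = 8.29e-06) and 3.72 in 3C (adjusted p = 6.09e-05). Ttr, the thyroxine carrier transthyretin, had 2.35 in 5C (adjusted p = 3.77e-07) and 2.02 in 3C (adjusted p = 1.71e-06). Igf1, a growth factor, was lower in all 4 cocktail libraries, at 13.4 to 19.4 CPM, than in both DMSO libraries, of which the higher was at 33.0 CPM. Its log2 fold change of -0.93 in 3C (adjusted p = 0.00415) stayed within the limit on the fold, and so did that in 5C (adjusted p = 0.00242), so it was not called. Of these 12 genes, 3 (Alb, Ttr and Apoa1) also belong to the hepatocyte markers.

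**Figure D4:**
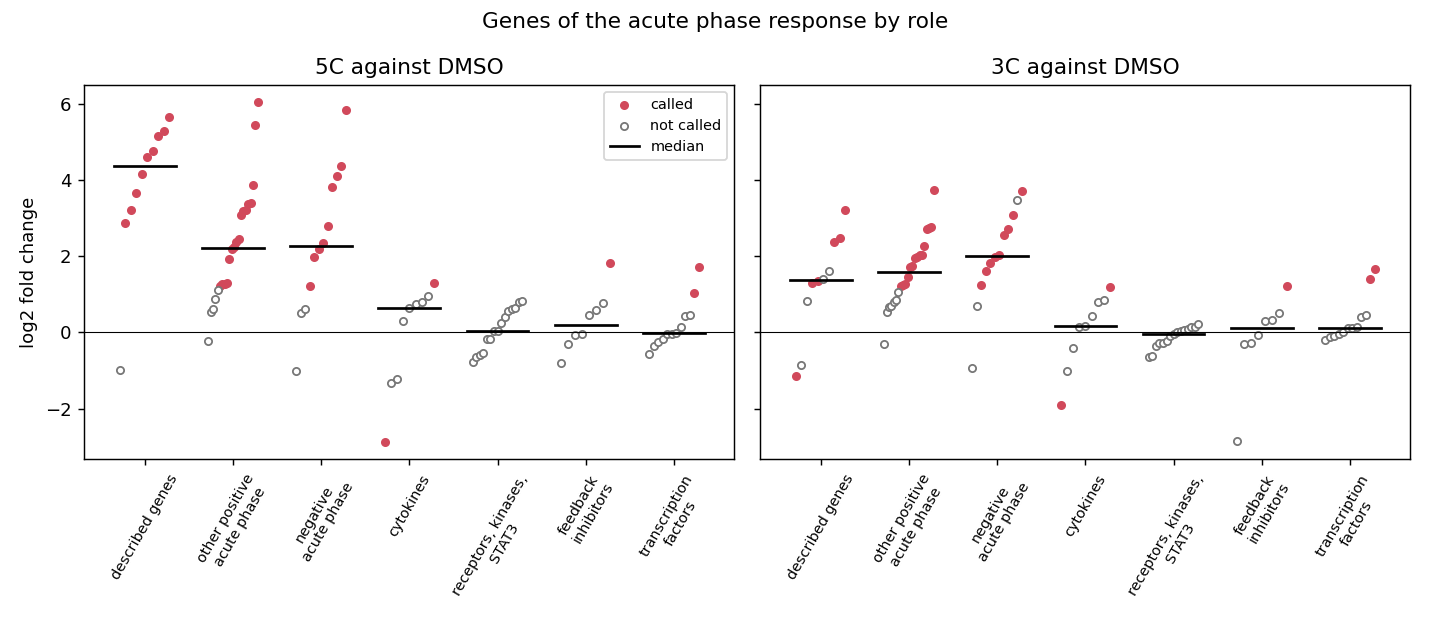
Log2 fold change of every tested gene of 7 lists in 5C against DMSO (left) and 3C against DMSO (right), with called genes in red, genes not called as open circles and the median of each list as a black line. The medians of the other positive and of the negative acute phase genes lie above 0 on both sides, with values of 2.21 and 2.27 on the left, and the medians of the receptors and of the transcription factors lie near 0.

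The upstream genes are set beside all tested genes, of which 7.3% were called higher and 4.42% lower in 5C, and 5.83% and 3.62% in 3C. Calls among the upstream genes were not read as rarer or more frequent than those shares. Of the 9 cytokine genes tested out of 10, Ctf1, the gp130 ligand cardiotrophin 1, was called higher in both cocktails, at 1.31 in 5C (adjusted p = 0.00133) and 1.18 in 3C (adjusted p = 0.00277). Il1a was called lower in both, at -2.88 (adjusted p = 0.000348) and -1.89 (adjusted p = 0.00375). Il6 stayed between 0.121 and 0.708 CPM in all 6 libraries, close to the floor, and Il1b was not tested. Of 15 receptors, kinases and adaptors of these pathways, 0 were called in either cocktail by edgeR and 0 by DESeq2. In edgeR, 13 in 5C and 7 in 3C had an unadjusted p under 0.05. Over all 19135 tested genes, 7287 in 5C and 6626 in 3C had such a p, so little is read from these counts. Within the limit on the fold, 11 of the 15 had an adjusted p under 0.05 in 5C, with values in both directions. Over all tested genes, 2984 higher and 2501 lower had one with no limit on the fold. Stat3 had a log2 fold change of 0.56 (adjusted p = 0.00028), the oncostatin receptor Osmr 0.62 (adjusted p = 0.000403), and Il1r1 0.82 (adjusted p = 0.00068) in 5C, while the kinase Tyk2 had -0.78 (adjusted p = 7.87e-05), Tnfrsf1b -0.55 (adjusted p = 0.000269), Il6ra -0.65 (adjusted p = 0.00138) and Lifr -0.60 (adjusted p = 0.0028). In 3C, Stat3 had 0.10, Osmr -0.08 and Il1r1 0.13, none with an adjusted p under 0.05, and Il6ra had -0.64 (adjusted p = 0.00174).

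Among 8 feedback inhibitors, Cish was called higher in both cocktails, at 1.81 in 5C (adjusted p = 3.01e-05) and 1.21 in 3C (adjusted p = 0.000412), and the other 7 were not called. Socs3, an inhibitor induced by STAT3, was at 51.2 and 59.7 CPM in DMSO, 44.4 and 46.9 with 3C, and 78.2 and 71.5 in 5C. The 3 groups of Socs3 did not overlap, with 5C highest. Among 12 transcription factors, Hnf4a (1.04 in 5C and 1.39 in 3C) and Creb3l3 (1.73 and 1.67), a membrane-bound factor that acts on Crp and Hamp, were called higher in both. The C/EBP genes were not called, with log2 fold changes in 5C of -0.57 for Cebpa, 0.47 for Cebpb and 0.14 for Cebpd.

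Of 11 tested genes for receptors and partners of the 10 proteins, 3 were called lower in each cocktail and 0 higher. Over all tested genes, 4.42% were called lower in 5C and 3.62% in 3C. Macrophage markers were also called lower in each cocktail, 11 of 12, and their part in these 3 calls was not tested. Cd163, the macrophage receptor for the haptoglobin-hemoglobin complex and itself one of the macrophage markers, had -2.12 in 5C (adjusted p = 3.49e-06) and -1.95 in 3C (adjusted p = 8.18e-06). Fpr2, a receptor for serum amyloid A, had -4.03 (adjusted p = 0.00149) and -2.25 (adjusted p = 0.0199). Tlr2 was called lower in 5C and Tlr4 in 3C. Lrp1, the hemopexin receptor, had -0.19 and -0.42 and was not called.

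The genes whose pattern over the 6 libraries was most like that of Orm1 were found by the Euclidean distance of centred log2 CPM among 10746 genes. They were Wfdc21 (distance 0.733), Serpina3k (1.16), Abcb11 (1.23), Fgl1 (1.32) and Emcn (1.59). Nearest to Fgl1 were Serpina3k (0.327), Emcn (0.826), Slc25a47 (0.828), Serpina3m (0.903) and Apoa4 (1.01). Serpina3k, which belongs to both sets, had a mean of 5.95 CPM in DMSO, 15.8 with 3C and 170.1 in 5C. These genes were picked by their likeness in the same libraries, so a shared pattern is no finding. Emcn, near to both, is known from endothelial cells.

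The markers of 3 further cell types are given beside the genes that were higher in 5C than in DMSO and 3C. Against DMSO, 5C gave 4 calls upward and 1 downward among the 6 endothelial markers with a test, and 3C gave 2 and 1. Cdh5, the endothelial cadherin, was at 1.25 and 1.06 CPM in DMSO, at 6.45 and 14.9 with 3C, and at 43.3 and 72.2 with 5C. Pecam1 was at 0.878 and 0.698 CPM in DMSO, at 3.11 and 8.77 with 3C, and at 22.3 and 41.4 with 5C. The order of the groups was thus the same for both markers as for Orm1 and Fgl1. The log2 fold change in 5C against DMSO was 5.66 for Cdh5 (adjusted p = 0.00363) and 5.36 for Pecam1 (adjusted p = 0.00749). The endothelial sum was highest in DMSO, at 328 to 337 CPM, with 88.3 to 119.9 in 3C and 141 to 216 in 5C. Lyve1, which some macrophages also express, was at 309 and 319 CPM of the DMSO sums and was the marker called lower with each cocktail. Clec4g was at or under the floor in all 6 libraries. The cholangiocyte markers summed to 2928 to 3418 CPM in DMSO, 3591 to 3777 with 3C and 2423 to 2728 with 5C. Most of that sum was Spp1, with means of 2990, 3240 and 2196 CPM. Of the 7 cholangiocyte markers, 3 were called higher and 0 lower in 5C against DMSO, and 5 and 0 in 3C. The shares called higher over all tested genes were 7.3% in 5C and 5.83% in 3C. The stellate cell markers summed to 5329 to 6199 CPM in DMSO, 4676 to 4720 with 3C and 7075 to 7669 with 5C. Of these 9, 3 were called higher and 0 lower in 5C, and 2 and 1 in 3C. The part of these cell types in the levels of the 10 genes was not tested.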

How the data were processed

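RNA libraries (NEBNext Ultra kit) were mapped by the authors to GRCm39. The submitters' notes name featureCounts, Subread and DESeq2; roles, versions, annotation and strand setting are not given in the sources used here. The authors deposited a table of estimated counts per gene (whole numbers, not normalized) and a table of FPKM, scaled by them for gene length and library total. Low values of the counts peak at multiples of 4, so 4 units per fragment were assumed. Groups came from the labels. The 10 genes and all lists were chosen with earlier results of these data known. Genes named outside them are the 5 nearest to Orm1 or Fgl1 by distance, among those that reached 10 CPM on average in a group.

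Tests were run in R 4.3.3 with edgeR 4.0.16 (quasi-likelihood F test, TMM, filterByExpr, robust dispersions) on the 6 libraries in 3 groups, with 3 residual degrees of freedom and adjustment over 19135 genes. The common biological coefficient of variation was 18.4%. SEs are those the F statistic implies. Folds against a group at the floor used 12 units. In simulated data, 184 to 194 of 200 genes changed in 5C against DMSO by a log2 fold change of 2 were recovered, among 18526 to 18543 genes. False calls were 4 to 7 per run. The changed genes had a minimum mean level, so this recovery does not cover genes as low in DMSO as Orm2, Orm3, Saa1 and Saa2. Alternatives covered normalization, filters, DESeq2 1.42.0, limma 3.58.1 on FPKM, thresholds, a replicate block and each library left out. Positions came from GENCODE on GRCm39, which matched 51722 of the 52323 IDs. Not every gene of the lists is reported here.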

Additional observations from a re-analysis of the deposited data

How the results depend on the processing

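The count of the 10 genes called in 5C against DMSO was 9, and 8 to 10 under every alternative run. In 3C against DMSO it was 6, with 5 to 8 under the alternatives. In 5C against 3C, which lay behind the choice of genes, 5 passed the same limits, and 8 with no limit on the fold. Nothing is read from that count or from how it held, since the choice of genes shaped it. Of the single-gene values under these alternatives, 2 turned sign, both in 3C against DMSO. The log2 fold change of Saa1 ranged from -0.83 to 1.58 and that of Saa2 from -6.42 to 0.13 over the left-out libraries, with the value of Saa2 at 0.13 without 3C replicate 1. The count of other positive acute phase genes called higher was 16 to 19 in 5C and 14 to 18 in 3C, and that of negative ones 8 to 11 and 8 to 10, for which the alternatives were chosen after seeing the data.

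Over all genes, with no limit on the fold 2984 were higher and 2501 lower in 5C against DMSO, 2434 and 2255 in 3C, and 1403 and 1020 in 5C against 3C, beside 1397 and 845, 1116 and 693, and 413 and 163. With the limit at 0.5 they were 2251 and 1521, 1794 and 1352, and 991 and 624. With limma on log2(FPKM + 1) above the FPKM filter they were 715 and 511, 581 and 376, and 201 and 57, and with no filter 700 and 492, 562 and 359, and 140 and 39. Replicate numbers did not pair the libraries, since deviations of same-numbered libraries correlated at -0.031, 0.001 and 0.016. With the replicate block the counts of the 10 genes were 9 in 5C against DMSO and 6 in 3C against DMSO. Where a left-out library leaves 1 in a group, that library is assumed to vary like the others. The fit to the 4 libraries compared gave no value for 1 gene in 1 comparison, which its filter removed. Depth limits Orm2, Orm3, Saa1 and Saa2, which were near the floor outside 5C.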

Other observations

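Glucocorticoid and cAMP target genes had their own lists. Of 8 glucocorticoid receptor targets, 1 was called higher in 5C against DMSO and 1 lower. Tat, a tyrosine-degrading enzyme, had a log2 fold change of 1.48 (adjusted p = 0.00341) and Dusp1 of -1.05 (adjusted p = 6.9e-06). In 3C, Tat had 1.90 (adjusted p = 0.00144), and the other 7 were not called. Tat is also among the hepatocyte markers. Among 11 tested cAMP response targets, 5C against DMSO gave 3 called higher and 0 lower. These were the gluconeogenic genes Pck1, at 5.65 (adjusted p = 0.00184), and G6pc, at 3.26 (adjusted p = 4.19e-06), and their coactivator Ppargc1a, at 1.20 (adjusted p = 0.0044). The same 3 genes were called higher in 3C at 3.42, 2.39 and 1.59, and Fosb was called lower there, at -2.04 (adjusted p = 0.000698). In 5C against 3C, the comparison that adds salidroside and forskolin, 4 of the 11 passed the same limits upward and 0 downward. Over all genes, 2.16% passed upward. The list was chosen with earlier results known, and this comparison lay behind the choice of genes, so nothing is read from the count of 4. Their log2 fold changes were 2.23 for Pck1, 1.71 for Nr4a3, 1.27 for Fosb and 1.20 for Pde4b. Sik1, at -0.53, Ppargc1a, at -0.38, and Pde4d, at -0.10, went the other way. Pck1 stood at 3.35 and 1.43 CPM in DMSO, 24.4 and 27.9 in 3C, and 92.9 and 143 in 5C. The part of forskolin or of cAMP in any of these levels was not tested.

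Among relatives of the 10 proteins, Fgl2, the other fibrinogen-like gene, had a log2 fold change of -0.87 in 5C (adjusted p = 0.00147), within the limit on the fold, and was called lower in 3C, at -1.07 (adjusted p = 0.000516), while Fgl1 was called higher in both. In the lipocalin family, Apom was called higher in 5C, at 3.02 (adjusted p = 0.000184), and in 3C, at 2.00 (adjusted p = 0.00229).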
